A study of Mus musculus with 6 samples.

Results

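Transcription factors that mark or specify the laminar identity of cortical projection neurons, 9 in number, were followed in bulk RNA-Seq of the embryonic mouse cortex. They were chosen by name as a fixed list, with no threshold on measured values, and 8 of the 9 had a row among the 17068 genes of the filtered count table. Tbr1, Bcl11b, Fezf2, Sox5 and Nr4a2 were taken as the 5 deep-layer factors, and Cux1, Cux2 and Pou3f2 as the 3 upper-layer factors measured. Pou3f3, the 4th upper-layer factor listed, was not analysed here. RNA came from the lateral cortex of female embryos of the c57/bl6 strain at embryonic day (E) 12.5, 1 library per embryo. Controls 1, 2 and 4 were Foxp1 fl/+ and control 3 was Foxp1 fl/fl, and all 4 carried no Cre. The 2 other embryos were labelled Foxp1 fl/fl;Emx1Cre, the conditional knockout called Foxp1cKO here. Emx1Cre drives recombination in the progenitors of the dorsal telencephalon and in their progeny, so cells of other origin in the dissected tissue keep intact Foxp1.

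The layers of the cortex are built from the inside out. Early-born neurons settle in the subplate and the deep layers and send axons to the thalamus, brainstem and spinal cord, while later-born neurons pass them to form the upper layers and connect cortical areas. Tbr1, Fezf2, Bcl11b and Sox5 act on one another in the young neurons to sort the deep-layer fates, whereas the Cux and POU factors are already present in some progenitors before upper-layer neurons are born. At E12.5 deep-layer neurogenesis is under way.

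None of the 8 factors passed the test between the labelled Foxp1cKO and the control embryos. Of the deep-layer factors 4 of 5 leaned lower, while 3 of 3 upper-layer factors leaned higher. The balance between the classes was lower in both labelled Foxp1cKO libraries than in any control. Taken pair by pair, only 2 differences from Pou3f2 separated the groups, and 0 from Cux1 or Cux2. Control 4, however, had a deep-layer mean below both labelled Foxp1cKO libraries. Other markers did not share the lean. Above 0 were 12 of 16 other deep-layer and subplate markers, and 6 of 12 other upper-layer markers. Pou3f2 was the factor with the largest fitted difference, 1.35-fold, and the only one whose values in the 2 groups did not overlap. Of all genes, 24.6% did not overlap either. Fezf2 had the lowest fitted value, a log2 fold change of -0.35. In bulk tissue, fewer cells of a type and less RNA per cell cannot be told apart.

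Each library held between 50076008 and 78346979 counts, and the factors had from 1361 to 30420 counts in a library, far above the floor of 3 counts, which was 0.0383 to 0.0599 CPM, the counts scaled to library size. Foxp1 itself, the gene targeted, had 59.7, 60.8, 71.2 and 79.1 CPM in controls 1 to 4, and 83.2 and 76.8 CPM in the labelled Foxp1cKO libraries. Its log2 fold change was 0.24 with a standard error (SE) of 0.129 and an adjusted p of 0.468 by edgeR's quasi-likelihood test, so the counts were not lower under the label and "labelled Foxp1cKO" is used throughout. Counts over the whole gene do not separate a recombined transcript from an intact one. Pairs of controls differed by 25.9 to 193 in chi-square per gene, and the labelled Foxp1cKO pair by 31.4, so no library was a copy of another. The p-values measure the spread between these single embryos.

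Markers of other tissue also differed between the libraries. The summed level of 14 markers of the ventral telencephalon and of interneurons was 1045 CPM in control 3 and 283 to 442 CPM in the other 3 controls, with 675 and 491 CPM in the labelled Foxp1cKO libraries. Nkx2-1 and Lhx8, which define the medial ganglionic eminence, reached 13.2 and 11.6 CPM in control 3 and at most 1.07 and 0.735 CPM elsewhere. Control 4 was lowest in 17 pan-neuronal genes, with a mean log2 CPM of 7.18 against 7.58 to 8.21 in the other 5 libraries.

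Promoter letters are shown for the factors with the highest and the lowest fitted difference, Pou3f2 and Fezf2, because they set the ends of the comparison. Both runs are from RefSeq promoter windows on GRCm38.p6, cut to the bases before the first annotated exon within the window, and are written 5′ to 3′ on the minus strand. Capitals mark ACGTG or GCGTG, the core letters of hypoxia response elements, on either strand.
Pou3f2, chr4:22488367-22488616: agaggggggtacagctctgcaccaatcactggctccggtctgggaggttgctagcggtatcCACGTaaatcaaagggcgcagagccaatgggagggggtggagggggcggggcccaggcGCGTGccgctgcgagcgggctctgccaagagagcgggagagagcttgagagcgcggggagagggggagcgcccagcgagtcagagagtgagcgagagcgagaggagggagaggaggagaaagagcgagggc
Fezf2, chr14:12345960-12346115: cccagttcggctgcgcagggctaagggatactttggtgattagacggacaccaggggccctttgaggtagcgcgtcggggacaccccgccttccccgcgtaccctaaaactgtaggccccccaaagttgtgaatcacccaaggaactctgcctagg
The Pou3f2 window held 1 match of each core, the first read as its reverse complement. No match lay in the Fezf2 window, which sits within the annotated gene, before one of its inner start sites. Over the 10 windows of 300 bases found for the 9 genes (Cux2 had 2), ACGTG was present in 2, those of Tbr1 and Pou3f2, against 19.6% of all 32851 windows. GCGTG was present in 4, those of Cux1, Nr4a2, Pou3f2 and Sox5, against 32.4%. The forkhead motif TGTTTAC was present in 2, those of Cux1 and Pou3f3, against 3.65%. Both strands were searched, and none of these shares describes binding.

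Compared per length of exon, the deep-layer factors covered most of the range of levels. In RPKM, which divides CPM by exon length in kilobases, the mean over 6 libraries was 64.2 for Tbr1, 37.8 for Bcl11b and 25.6 for Fezf2. Pou3f2 followed at 17.8, Sox5 at 17.3 and Cux1 at 13.6 RPKM. Cux2 at 7.90 and Nr4a2 at 7.17 RPKM were lowest. The ranges over libraries overlapped between every pair of neighbours in that order except Cux1, whose lowest library had 11.8 RPKM, and Cux2, whose highest had 11.01 RPKM. By level, Tbr1 stood at the 97.0 percentile of all genes in the table and Nr4a2 at the 59.5 percentile. The order depends on the annotated exon length, which was 20024 bases for Cux1, 14376 for Sox5 and 3047 for Fezf2. In CPM alone, Cux1 lay above Fezf2 in each library.

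**Figure D1:**
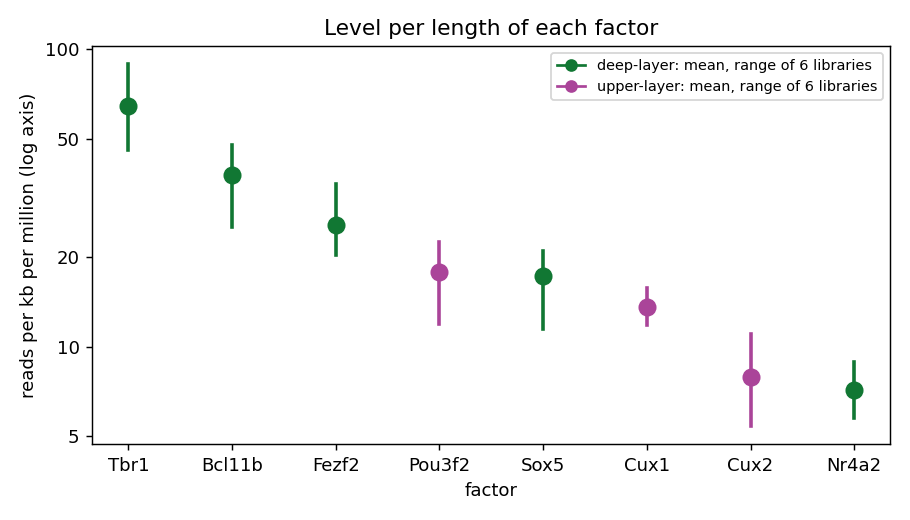
Mean level per exon length of each factor in RPKM on a log axis, with a bar from the lowest to the highest of the 6 libraries; green marks deep-layer and purple upper-layer factors. Tbr1 is highest at 64.2 and Nr4a2 lowest at 7.17 RPKM, and neighbouring bars overlap except for Cux1 and Cux2.

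Among the deep-layer factors, Tbr1 is a T-box factor of the early-born neurons of layer 6 and the subplate. It lies on chromosome 2 at 61802930-61814114, plus strand (GRCm38, as are all positions below). Its level was 349, 490, 382 and 251 CPM in controls 1 to 4, and 303 and 339 CPM in the labelled Foxp1cKO libraries. Control 2 was the highest and control 4 the lowest of all 6, and both labelled Foxp1cKO libraries lay between them. The log2 fold change was -0.20 (SE 0.236, 95% interval -0.75 to 0.36), with an adjusted p of 0.755 by edgeR.

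Bcl11b (Ctip2) is a zinc finger factor that guides the axons of subcerebral neurons, on chromosome 12 at 107910403-108003602, minus strand. Controls 1 to 4 had 269, 337, 387 and 204 CPM, and the labelled Foxp1cKO libraries had 309 and 332 CPM. The controls enclosed both. With a log2 fold change of 0.096 (SE 0.233, interval -0.45 to 0.65) and an adjusted p of 0.892 by edgeR, Bcl11b was the only deep-layer factor with a fitted value above 0, and without control 4 that value was -0.049.

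Fezf2, a zinc finger repressor that selects the corticospinal fate, lies on chromosome 14 at 12342094-12348189, minus strand. It had 107, 86.9, 63.9 and 77.7 CPM in controls 1 to 4, and 61.9 and 70.1 CPM in the labelled Foxp1cKO libraries. One labelled Foxp1cKO library was the lowest of the 6, but the other lay above control 3, the control rich in ventral markers. The log2 fold change of -0.35 (SE 0.194, interval -0.80 to 0.11) had an adjusted p of 0.486 by edgeR.

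Sox5, a SoxD factor that keeps corticofugal neurons on their sequence of fates, lies on chromosome 6 at 143828425-144781977, minus strand. Its levels were 288, 262, 302 and 165 CPM in the controls, and 222 and 254 CPM in the labelled Foxp1cKO libraries. Here too control 4 was lowest, and the log2 fold change was -0.095 (SE 0.231, interval -0.64 to 0.45; adjusted p 0.893 by edgeR). Exons of other genes on the opposite strand cover 9.25% of the Sox5 exons, and whether the counting used strand was not given in the sources used here.

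Nr4a2 (Nurr1), an orphan nuclear receptor of subplate and claustral neurons, lies on chromosome 2 at 57106830-57124003, minus strand. Controls 1 to 4 had 34.9, 26.5, 23.3 and 36.0 CPM, and the labelled Foxp1cKO libraries had 27.0 and 26.9 CPM. Control 4 was its highest library and control 3 its lowest, the reverse of Bcl11b and Sox5, and both labelled Foxp1cKO libraries lay within the control range. The log2 fold change was -0.16 (SE 0.188, interval -0.61 to 0.28; adjusted p 0.747 by edgeR).

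Of the upper-layer factors, Cux1 is a cut-homeodomain factor that shapes dendrites and spines of upper-layer neurons, on chromosome 5 at 136248135-136567490, minus strand. It varied least: controls 1 to 4 had 237, 262, 263 and 286 CPM, a 1.21-fold range, and the labelled Foxp1cKO libraries had 314 and 272 CPM. One labelled Foxp1cKO library was above every control and the other was below control 4. The log2 fold change was 0.16 (SE 0.100, interval -0.077 to 0.40; adjusted p 0.529 by edgeR).

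Its paralog Cux2, which is also found in dividing cells of the subventricular zone and in interneurons, lies on chromosome 5 at 121856366-122050102, minus strand. It varied most: controls 1 to 4 had 67.6, 75.3, 111 and 54.4 CPM, a 2.04-fold range, and the labelled Foxp1cKO libraries had 87.3 and 82.1 CPM. Control 3, with the most ventral markers, was the highest library, and control 4 the lowest. The log2 fold change was 0.14 (SE 0.255, interval -0.47 to 0.74; adjusted p 0.856 by edgeR).

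Pou3f2 (Brn2), a POU factor that acts with Pou3f3 in the production and migration of upper-layer neurons, is a single-exon gene on chromosome 4 at 22482780-22488366, minus strand, downstream of the first promoter printed above. It had 66.3, 104, 99.95 and 86.9 CPM in controls 1 to 4, and 115 and 126 CPM in the labelled Foxp1cKO libraries. Both labelled Foxp1cKO libraries stood above every control, the closest being control 2. The log2 fold change of 0.43 (SE 0.173, interval 0.023 to 0.84) had an unadjusted p of 0.0412 and an adjusted p of 0.368 by edgeR.

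**Figure D2:**
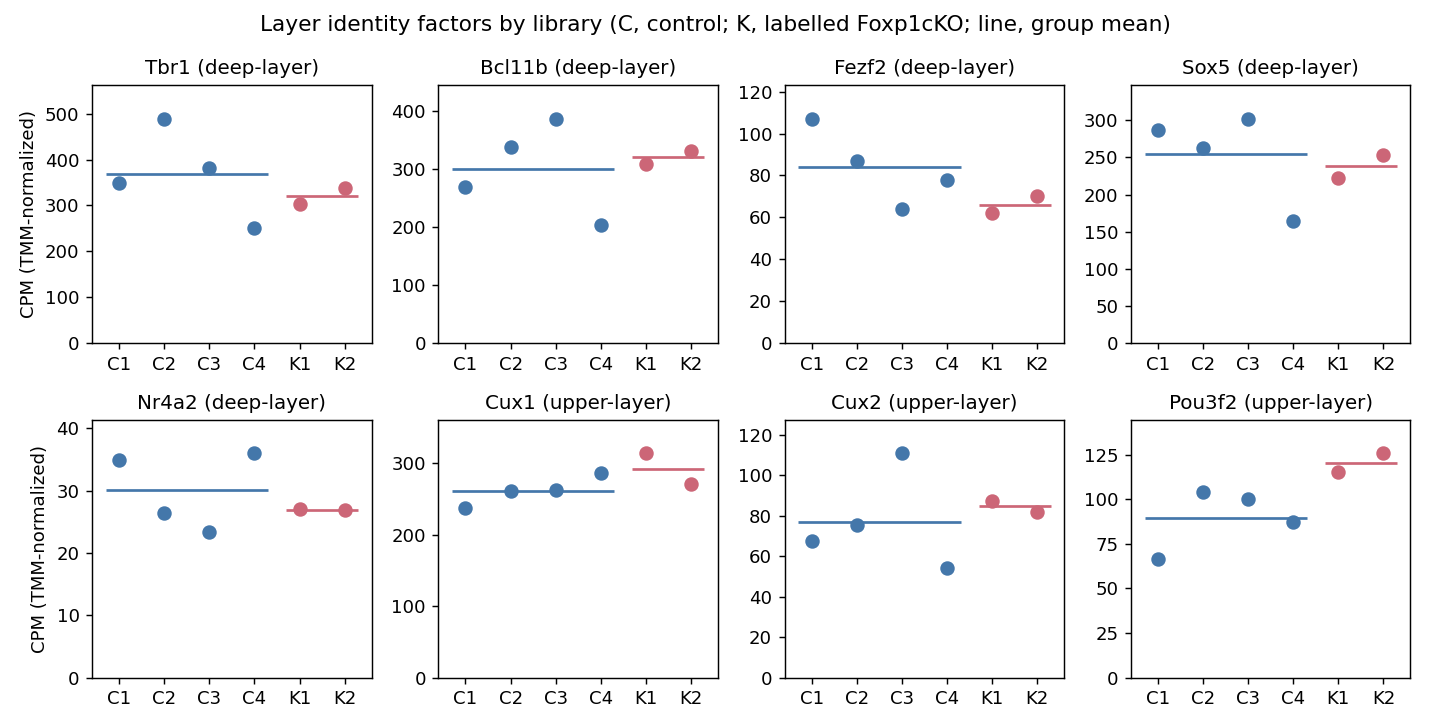
Level of each factor in CPM (TMM-normalized, axes from 0) in controls C1 to C4 and labelled Foxp1cKO libraries K1 and K2, with a line at each group mean. The groups overlap for every factor except Pou3f2, and C4 is the lowest library for Tbr1, Bcl11b, Sox5 and Cux2.

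By edgeR, 0 of the 8 factors passed an adjusted p of 0.05, where 0.152% of all genes tested did, all of them higher. Neither DESeq2 nor limma called any of the 8, although DESeq2 called 2.78% of all genes. At an unadjusted p under 0.05 there was 1 of 8, against 13.0% of all genes. The 2 labelled Foxp1cKO libraries lay outside the range of the controls for 1 of 8 factors, against 24.6% of all genes. The factors were outside the control range no more often than genes at large. The intervals still leave room for differences of some size, up to 0.84 for Pou3f2 and down to -0.80 for Fezf2 on the log2 scale.

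**Figure D3:**
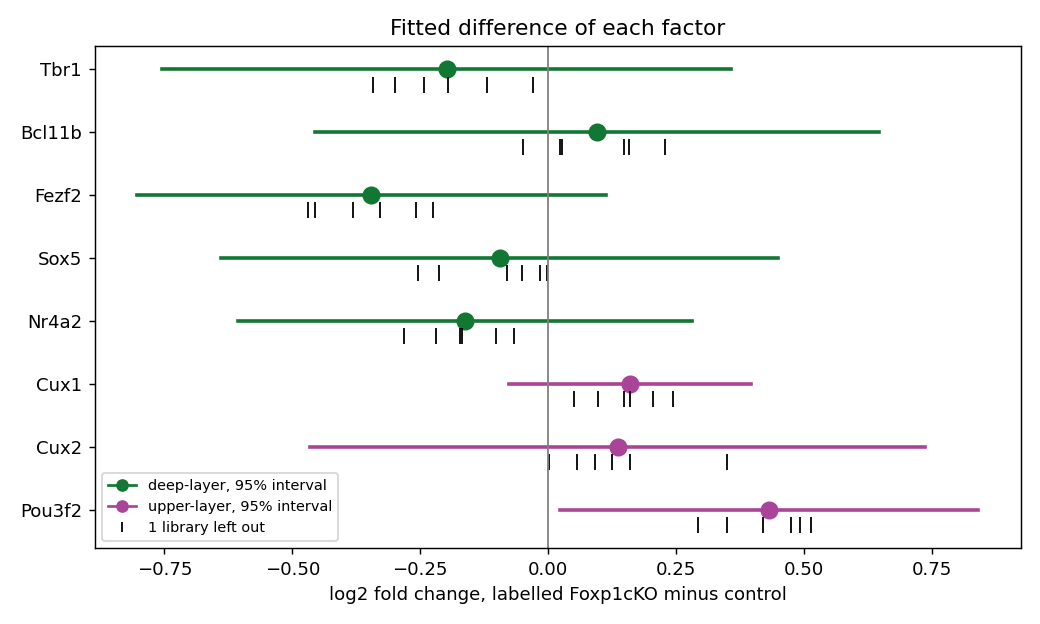
Fitted log2 fold change of each factor, labelled Foxp1cKO minus control (x axis), with its 95% interval, green for deep-layer and purple for upper-layer factors; black ticks give the value with each of the 6 libraries left out in turn. Only the interval of Pou3f2 leaves out 0, and only Bcl11b changes sign when 1 library is left out.

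The deep-layer factors were then set against the upper-layer factors, first by the fitted values between the groups. The median log2 fold change was -0.16 for the deep-layer factors, of which 4 of 5 were below 0, and 0.16 for the upper-layer factors, of which 3 of 3 were above 0. Over all genes the median was -0.0044, with 49.3% above 0 and 50.7% below.

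The mean log2 CPM of the 5 deep-layer factors was 7.31, 7.31, 7.19 and 6.89 in controls 1 to 4, and 7.004 and 7.13 in the labelled Foxp1cKO libraries. For the 3 upper-layer factors it was 6.67, 6.99, 7.16 and 6.79 in the controls, and 7.20 and 7.14 in the labelled Foxp1cKO libraries. Each class overlapped between groups only through single controls: control 4 for the deep-layer factors, and control 3 for the upper-layer factors, which had 7.16 against 7.14 in the lower labelled Foxp1cKO library.

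In the difference between the class means within a library, the scaling between libraries cancels. Deep minus upper was 0.64, 0.32, 0.033 and 0.10 in controls 1 to 4, and -0.19 and -0.0100 in the labelled Foxp1cKO libraries. The control mean was 0.27 ± 0.27 (SD, n = 4) and the labelled Foxp1cKO mean was -0.10 ± 0.13 (SD, n = 2), a difference of -0.37. Although the groups did not overlap, the gap between control 3 and the nearest labelled Foxp1cKO library was small beside the spread among the controls. Control 3 was the only control that was Foxp1 fl/fl, as both labelled Foxp1cKO embryos were. Controls 1, 2 and 4 were Foxp1 fl/+, so against them group and the number of floxed alleles cannot be told apart. The difference was -0.37 without Nr4a2 and -0.43 without Cux1, and a score without Pou3f2 was not tried. No p is given for this score over chosen factors, and the smallest two-sided p that an exact permutation of 4 against 2 libraries allows is 0.133.

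Taken as 15 pairs of 1 deep-layer and 1 upper-layer factor, the group mean was lower in the labelled Foxp1cKO libraries for all 15. This restates the fitted values and adds nothing to them. The highest deep-layer value, 0.096 for Bcl11b, was already below the lowest upper-layer value, 0.14 for Cux2. Both labelled Foxp1cKO libraries lay below all controls in 2 of the 15 pairs, Tbr1 minus Pou3f2 and Fezf2 minus Pou3f2, and the other 13 overlapped. Of all single genes, 13.1% lay below all controls. Tbr1 minus Pou3f2 was 2.40, 2.24, 1.93 and 1.53 in the controls and 1.40 and 1.43 in the labelled Foxp1cKO libraries, on the log2 scale. The pairs share their factors and are not independent.

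**Figure D4:**
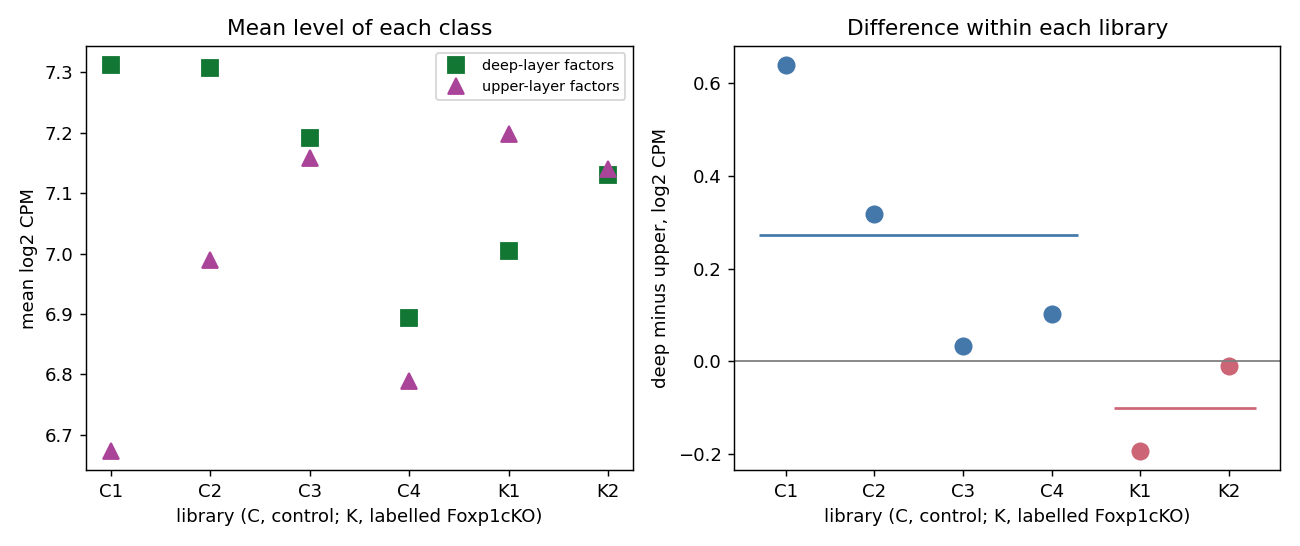
Left, mean log2 CPM of the 5 deep-layer (squares) and 3 upper-layer (triangles) factors in each library; right, their difference, with a line at each group mean and a grey line at 0. Control 1 has the largest difference, 0.64, and both labelled Foxp1cKO libraries, at -0.19 and -0.0100, lie below the lowest control at 0.033.

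How the factors followed the neuronal content of the libraries was examined next, with 16 correlations over the 6 libraries, of 8 factors with the mean log2 CPM of the pan-neuronal genes and of the ventral markers. Bcl11b followed the pan-neuronal genes, with Pearson's r of 0.967 (exact permutation p 0.00417, adjusted 0.0333) and Spearman's rho of 0.943 (exact p 0.0167, adjusted 0.0889). Without the 2 libraries farthest from the median, r was 0.877. Nr4a2 ran the other way, with r of -0.913 (exact permutation p 0.00278, adjusted 0.0333) and rho of -0.943 (exact p 0.0167, adjusted 0.0889), and r was -0.879 without those 2. These 2 of the 16 passed by Pearson's r and 0 by Spearman's rho. With the ventral markers, Bcl11b had r of 0.693 (exact permutation p 0.128, adjusted 0.227), and 0.548 without 2 libraries. Control 3, with the most ventral markers, was also its highest library. With these markers 6 of the 8 factors had a positive r, but Nr4a2 and Fezf2 did not. Nr4a2 had r of -0.842 (exact permutation p 0.0417, adjusted 0.119), and -0.636 without 2 libraries. For Fezf2 r was -0.821 (exact permutation p 0.0444, adjusted 0.119), and -0.825 without 2 libraries.

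Cux2 had r of 0.945 with the pan-neuronal genes (exact permutation p 0.0153, adjusted 0.0815; rho 0.8286, exact p 0.0583, adjusted 0.187), r being 0.489 without the 2 farthest libraries, so the relation rested on them. With the ventral markers, Cux2 had r of 0.886 (exact permutation p 0.0236, adjusted 0.0944; rho 0.943, exact p 0.0167, adjusted 0.0889), and 0.848 without 2 libraries. The groups hold 4 and 2 libraries, too few for a correlation within a group. Relative to the pan-neuronal mean, Cux2 was the 1 factor of 8 for which both labelled Foxp1cKO libraries stood above all controls. They were at -1.31 and -1.36 against -1.49 ± 0.10 (SD, n = 4) on the log2 scale, and the closest control was at -1.42. In plain CPM 24.6% of all genes lay outside the control range, and no such share is given for this scale. The lead of Pou3f2 was no longer free of overlap, since control 4 was at -0.74 and the labelled Foxp1cKO libraries at -0.91 and -0.75.

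**Figure D5:**
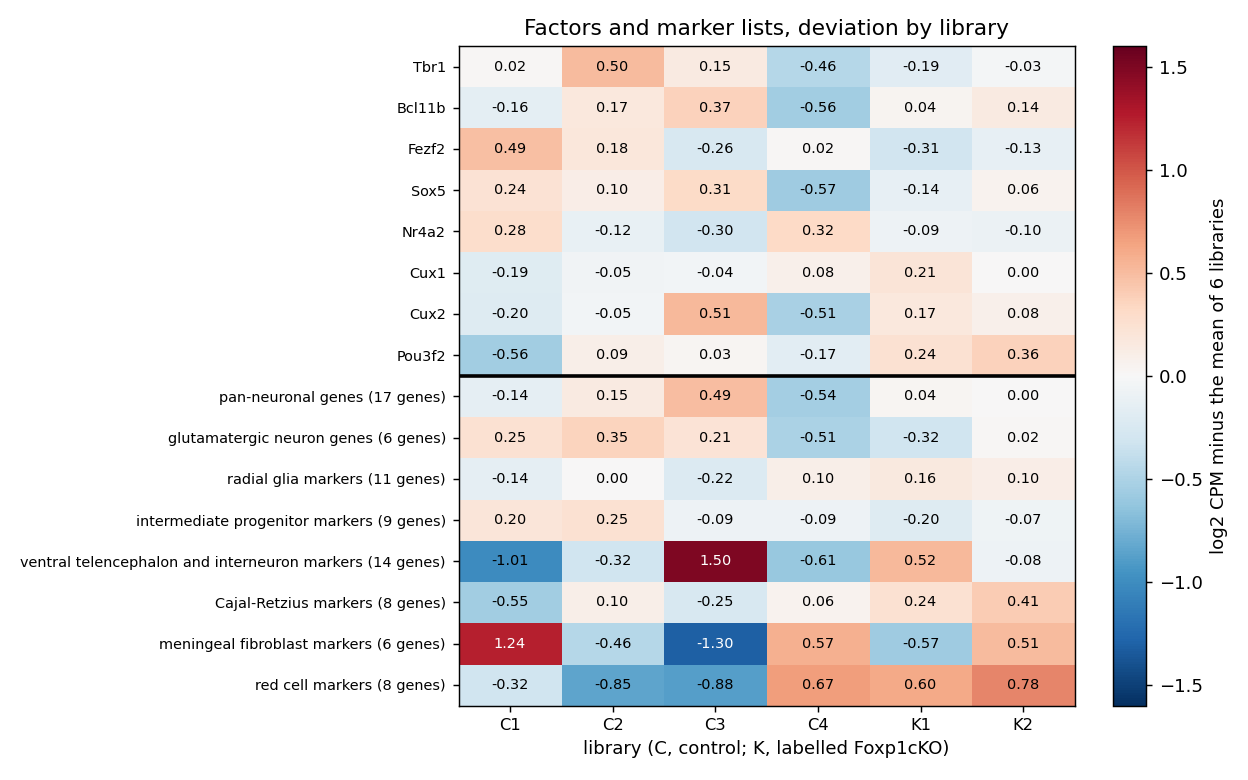
Log2 CPM minus the mean of the 6 libraries for each factor (above the line) and for the mean of 8 marker lists (below it), in controls C1 to C4 and labelled Foxp1cKO libraries K1 and K2; red is higher and blue lower. C4 is blue for Tbr1, Bcl11b, Sox5 and Cux2 together with the neuronal lists, and C3 is red for ventral markers and for Cux2.

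The cell-type lists placed beside the factors gave the setting of the contrast. Of 6 glutamatergic neuron genes, such as Neurod6 and Neurod2, 5 had fitted values below 0 (median log2 fold change -0.27). Their summed level was 1102, 1155, 1012 and 624 CPM in controls 1 to 4 and 665 and 925 CPM in the labelled Foxp1cKO libraries, with control 4 lowest. Of 9 intermediate progenitor markers, 8 were below 0 (median -0.21), while 8 of 11 radial glia markers were above 0 (median 0.36). Eomes (Tbr2), the intermediate progenitor factor and paralog of Tbr1, had 337, 375, 272 and 256 CPM in the controls and 277 and 260 CPM in the labelled Foxp1cKO libraries. By edgeR, 0 of these 26 genes passed, where 0.152% of all genes did. At an unadjusted p under 0.05 by edgeR there were 0, 2 and 4 in the 3 lists, against 13.0% of all genes. DESeq2 called 1 radial glia marker, Notch1, against 2.78% of all genes, and limma none.

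The 8 Cajal-Retzius markers, genes of the early layer 1 neurons such as Reln, all had fitted values above 0 (median 0.46), with summed levels of 414 to 522 CPM in the controls and 535 and 636 CPM in the labelled Foxp1cKO libraries. The sums for 6 meningeal fibroblast markers ran from 92.7 CPM in control 3 to 562 CPM in control 1, with 150 and 340 CPM in the labelled Foxp1cKO libraries. The 8 red cell markers summed to 1019 to 1339 CPM in controls 1 to 3, but to 2985 CPM in control 4, near the 3129 and 3489 CPM of the labelled Foxp1cKO libraries. Among the Cajal-Retzius, meningeal and red cell markers edgeR called 0, with 5 at an unadjusted p under 0.05, against 13.0% of all genes. DESeq2 called 2, Ndnf and Hba-a1, against 2.78% of all genes, and limma none. Dorsal telencephalon markers (5 genes, Emx1 among them; 0 at an unadjusted p under 0.05) had a median of 0.028, pan-neuronal genes (17, likewise 0) one of -0.021, ventral markers (14, likewise 0) one of 0.17, and microglia markers (6, of which 1) one of 0.15. Of these 42 genes edgeR, DESeq2 and limma each called 0. Flt1, a receptor for Vegf, was the 1 gene of all lists past the test by edgeR, with a log2 fold change of 1.64 and an adjusted p of 0.0179. The endothelial list had a median of 0.18 over 7 genes, 2 of them at an unadjusted p under 0.05 by edgeR, against 13.0% of all genes. DESeq2 called 2, Flt1 and Pecam1, against 2.78% of all genes, where limma called 1. With the pan-neuronal mean as a covariate in edgeR, the fitted values of the factors kept their sign, at 0.43 for Pou3f2 and -0.33 for Fezf2, and the class medians were -0.12 and 0.16. The part of the other cell types in the values of the factors was not tested in a fit.

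The paralogs of the factors showed no common direction. Of 10, 6 had fitted values above 0 and 4 below (median 0.087), and none passed by edgeR, DESeq2 or limma. An unadjusted p under 0.05 by edgeR, which 13.0% of all genes had, was found for 1 paralog. That was Nr4a1, an immediate early gene of the Nr4a2 family, with 6.44 to 8.05 CPM in the controls and 9.06 and 10.9 CPM in the labelled Foxp1cKO libraries (log2 fold change 0.46, adjusted p 0.315 by edgeR). Nr4a3 had 3.04 to 11.7 CPM in the controls and 2.52 and 6.49 CPM in the labelled Foxp1cKO libraries. Fezf1, the sister gene of Fezf2, had 1.81 to 8.11 CPM in the controls, but 27.6 and 4.40 CPM in the labelled Foxp1cKO libraries, so that 1 library carried its fitted value of 1.61.

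The remaining paralogs overlapped between the groups. Bcl11a, which acts beside Bcl11b in cortical neurons, had 292 to 354 CPM in the controls and 366 and 342 CPM in the labelled Foxp1cKO libraries. Sox6, a SoxD partner of Sox5 found in progenitors, had 189 to 243 CPM in the controls and 211 and 208 CPM in the labelled Foxp1cKO libraries, and Sox13 had 19.1 to 38.5 CPM in the controls against 23.3 and 21.6 CPM. Pou3f1 and Pou3f4, POU relatives of Pou3f2, had control ranges of 13.4 to 31.0 and 25.2 to 51.1 CPM, which enclosed both labelled Foxp1cKO libraries. Tbx21 was near the floor, at 0.113 to 0.386 CPM.

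Other regulators and markers of the layers did not repeat the lean of the factors. Of 22 other layer regulators, 12 were above 0 and 10 below (median log2 fold change 0.031). Of 18 other deep-layer and subplate markers 16 were measured, and 12 of these were above 0 and 4 below. Their median of 0.14 was on the opposite side from the median of the 5 deep-layer factors. The counts weigh all genes alike, also those under 1 CPM or near 0. Of 12 other upper-layer markers, 6 were above and 6 below 0 (median -0.045). In the 3 lists 0 genes passed by edgeR, DESeq2 or limma. An unadjusted p under 0.05 by edgeR was found for 3, 2 and 1 genes, against 13.0% of all genes. The lists share genes. In 4 of the 22 regulators both labelled Foxp1cKO libraries lay above all controls, against 11.5% of all genes, and in 0 below, against 13.1%.

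Foxp2, a forkhead factor of layer 6 neurons and a relative of Foxp1, had 34.5, 48.7, 63.3 and 55.4 CPM in controls 1 to 4, and 72.6 and 82.5 CPM in the labelled Foxp1cKO libraries (log2 fold change 0.62, adjusted p 0.326 by edgeR). Rorb, a nuclear receptor of layer 4 neurons, had 13.1, 17.8, 22.8 and 12.3 CPM in the controls and 27.0 and 22.8 CPM in the labelled Foxp1cKO libraries (0.59, adjusted p 0.382 by edgeR). Ski and Nfia were the other 2 regulators above all controls. These 4 regulators were named after their values were seen.

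The most abundant genes per length in the 3 lists of layer regulators and markers overlapped between groups, apart from 1. Sox4 and Sox11, SoxC factors of young neurons, had 571 to 823 and 959 to 1422 CPM in the controls, with log2 fold changes of -0.029 and 0.23 (adjusted p 0.960 and 0.568 by edgeR). Lhx2, a regulator of cortical fate, had 257 to 614 CPM in the controls and 459 and 392 CPM in the labelled Foxp1cKO libraries. Rprm, a layer 6 marker, had 83.3 to 126 CPM in the controls and 72.3 and 89.4 CPM in the labelled Foxp1cKO libraries, and Tle4, a corepressor of layer 6, had 69.3 to 97.6 CPM against 92.6 and 72.0 CPM. The exception was Nxph4, a subplate marker, with 16.5 to 31.6 CPM in the controls and 32.3 and 34.7 CPM in the labelled Foxp1cKO libraries (0.46, adjusted p 0.459 by edgeR). Lmo4, Plxnd1 and Bhlhe22, the most abundant upper-layer markers, had log2 fold changes of 0.070, -0.14 and -0.27.

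Genes that neighbour the factors within 10 kb were measured for 5 of the 8, and for Pou3f3. Psmd14, a proteasome subunit gene that ends 2554 bases before Tbr1 on the same strand, had 158 to 175 CPM in the controls and 143 and 146 CPM in the labelled Foxp1cKO libraries, below all controls (log2 fold change -0.21, adjusted p 0.324 by edgeR). Gm30731, 2182 bases from Pou3f2 on the opposite strand, had 2.48 to 3.62 CPM in the controls and 3.52 and 3.59 CPM in the labelled Foxp1cKO libraries, which overlap. BB557941, on the strand of Nr4a2, had 1.65 to 2.43 CPM in the controls and 2.82 and 3.11 CPM in the labelled Foxp1cKO libraries (0.57, adjusted p 0.352 by edgeR). Beside the Cux genes, Sh2b2 and Pheta1 overlapped between groups, and Gm16599, a transcript antisense to Cux1 whose reads cannot be told from those of Cux1 without strand, had 0.210 to 0.343 CPM in the controls and 0.139 and 0.0923 CPM in the labelled Foxp1cKO libraries, below all controls (-1.25, adjusted p 0.298 by edgeR).

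Pou3f3, not analysed here itself, has a noncoding partner in Pantr1, which is transcribed away from it and lies 926 bases off. Pantr1 had 122, 140, 144 and 138 CPM in controls 1 to 4, and 134 and 136 CPM in the labelled Foxp1cKO libraries (log2 fold change -0.0070, SE 0.0857, adjusted p 0.981 by edgeR). Pantr2 had 60.0 to 67.6 CPM in the controls and 64.4 and 68.0 CPM in the labelled Foxp1cKO libraries. AC122898.1, whose span overlaps Pou3f3 on the same strand, had 10.9 to 13.2 CPM in the controls and 13.5 and 16.6 CPM in the labelled Foxp1cKO libraries (0.36, adjusted p 0.363 by edgeR). None of these stands in for Pou3f3.

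The genes whose levels were most like those of the factors over the 6 libraries were sought among 10091 genes with a mean of at least 10 CPM, as a description. Armcx3, Plce1, Efna3, Limch1 and Rhebl1 had the highest Pearson's r with the mean of the deep-layer factors, from 0.984 to 0.995, and 26 genes had r over 0.95. For the mean of the upper-layer factors they were Trappc8, Trank1, Iglon5, Mgat5 and Zfp81, with r from 0.989 to 0.997, and 77 genes had r over 0.95. The 6 points share the library differences in neuronal and ventral markers described above.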

How the data were processed

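RNA-Seq libraries of 6 embryonic cortices were analysed. Per the study's methods, stranded libraries were sequenced in paired ends, aligned to mm10 with STAR, counted on GENCODE genes with HTSeq in union mode and filtered for low counts; the submitters' processing notes name FastQC 0.11.9, MultiQC, Picard, SAMtools, HTSeq 0.9.1, R 4.0.3 and DESeq2 1.30.1. The deposited counts are whole reads per gene without normalization. The authors also deposited log2-like VST values, used in an alternative only. The study's model held litter, which the labels do not give, so group alone was fitted.

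All 17068 genes entered edgeR 4.0.16 (R 4.3.3; glmQLFit and glmQLFTest, TMM), with Benjamini-Hochberg adjustment and a threshold of 0.05. CPM values are TMM-scaled, log2 CPM used a prior count of 2, and RPKM used the union of exons in GENCODE M21 (17047 identifiers matched, without version numbers; 21 did not). No p was computed over the list of factors. DESeq2 1.42.0, limma 3.58.1 on the VST values, other normalizations, a filter of 1 CPM in 2 libraries, a replicate block, a pan-neuronal covariate, robust dispersion and leaving out each library were tried as alternatives. The fit was also run on simulated counts, drawn independently for each gene. Those counts hold none of the marker differences between libraries described above, so the run does not vouch for the fit here. Intervals of fold changes come from edgeR's fit; the floor of 3 counts covers counting error only, since PCR copies are not independent molecules.

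Groups and replicate numbers came from the labels. The members and lists were chosen with earlier results of these data known. Named genes were the factors, their paralogs and neighbours within 10 kb, Foxp1, genes of the lists past the threshold, the genes of highest RPKM in each list (3 at most), and the 5 genes most correlated with each class. Nkx2-1 and Lhx8, and the regulators above all controls, were named outside these rules. Pou3f3, Tubb3, Sox2, Neurod1, Cplx3 and Ctgf were not analysed here. Values of 1 other listed gene are not reported here.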

Additional observations from a re-analysis of the deposited data

Results flagged for a closer look

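Among 26 sets of control values checked for an extreme library (each factor, class mean and marker list), 1 stood out: control 4 was the lowest of the controls in the mean of the 6 glutamatergic neuron genes, at 6.23 log2 CPM, with the next control at 6.96 and the highest at 7.10. Its gap to the nearest control was 0.84 of the whole range. Chance alone flags about 1 in 20 such sets. The same library had the lowest Tbr1, Bcl11b, Sox5 and Cux2, and its values are given beside each of these.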

How the results depend on the processing

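Over 14 alternatives none of the 112 fits of the 8 factors passed the threshold, the smallest adjusted p being 0.145, for Pou3f2. The fitted value of 1 factor changed sign: Bcl11b ranged from -0.049 (without control 4) to 0.23 (without control 3), and the cause was not tested. The range over alternatives was 0.29 to 0.53 for Pou3f2 and -0.55 to -0.22 for Fezf2 on the log2 scale. Single libraries moved the smaller values far: Cux2 was at 0.0011 without control 4 and 0.35 without control 3, Sox5 at -0.0017 without Foxp1cKO 1 and -0.25 without control 4, Tbr1 at -0.030 without control 2 and -0.34 without control 4, Nr4a2 at -0.066 without control 4 and -0.28 without control 3, and Cux1 at 0.052 and 0.25 without Foxp1cKO 1 and 2. The deep minus upper difference was -0.47 to -0.25 with 1 library left out, the medians of the deep-layer factors -0.25 to -0.079 and those of the upper-layer factors 0.091 to 0.35. The number of genes called over the whole table moved more: 26 by edgeR, 474 by DESeq2, 317 with the pan-neuronal covariate, and 2 to 96 with 1 library left out (6, 2, 20 and 96 without controls 1 to 4, 9 and 3 without each labelled Foxp1cKO library). The cause of these shifts was not tested.

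With the replicate block, 0 genes were called by edgeR (3027 at an unadjusted p under 0.05), the deep minus upper difference was -0.58, and the class medians were -0.21 and 0.25. Only numbers 1 and 2 are shared, and the deviations of same-numbered libraries had a correlation of -0.097 over genes, so the numbers were not taken to pair the embryos.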
